A study of Danio rerio with 8 samples.

Results

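The caspases *casp2*, *casp8*, *casp9*, *casp3a* and *casp3b*, the inhibitor of apoptosis *birc2* and the calpains *capn8*, *capn1a*, *capn2a* and *capn2b* were followed in zebrafish embryos at 8 hpf (hours post fertilization), during gastrulation. They were chosen by name as the initiator and executioner caspases, 1 caspase-pathway inhibitor and calpain proteases, with earlier results of these data known. All 10 were found among the 32520 genes in the deposited counts. The mutant embryos were *miR-34a-/-*, homozygous for a CRISPR/Cas9 deletion of the microRNA gene miR-34a, and they came from 1 mutant line that was kept as a separate homozygous stock, so that they lacked the maternal as well as the zygotic copy. The controls were wild-type at miR-34a. Both genotypes were in the *casper* background, which carries pigment mutations. Since the controls were not siblings of the mutants, an effect of the deletion and a difference between the 2 lines cannot be told apart. RNA was taken from pools of whole embryos, 30 per pool by the study's methods and 30 to 50 by the sample labels, and 4 poly-A libraries were sequenced per genotype. In such bulk samples, fewer cells that express a gene and less RNA per cell cannot be told apart. Nothing in the labels says whether the pools came from separate clutches, so the p-values measure the spread between these libraries, which may be technical.

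Caspases are proteases that cut proteins after aspartate, and they are made as inactive precursors. Initiator caspases are switched on in large complexes: caspase-9 in the apoptosome with Apaf1 and cytochrome c, caspase-8 at death receptors through Fadd, and caspase-2 in the PIDDosome with Pidd1 and Cradd. Caspase-8 and caspase-9 cut executioner caspases, which dismantle the cell. Inhibitor of apoptosis proteins (IAPs) restrain this cascade, and the mitochondrial protein Diablo, also called Smac, displaces IAPs. Calpains are calcium-activated proteases that cut their substrates at a few sites. The classical calpains, *capn1* and *capn2*, work as a large subunit bound to a small regulatory subunit, Capns1, and are inhibited by calpastatin.

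The libraries held 8159574 to 15724724 gene counts for *miR-34a-/-* and 7132045 to 11191023 for wild-type. A gene with 3 counts, taken as the floor, had a level of 0.192 to 0.420 CPM, which are counts scaled to a common library size. The genotypes separated on the first principal component, and wild-type replicate 4 stood apart from the others on the second. The miR-34a, miR-34b and miR-34c genes had 0 counts in all 8 libraries, so the counts could not check the genotype labels. Gastrula markers were present, with none of 13 at the floor, and their summed level was 2757 to 3041 CPM in *miR-34a-/-* libraries and 3044 to 3188 CPM in wild-type libraries. Of these markers, 1 was higher and 8 were lower in the mutants. Among later segmentation markers, *myog*, *gata1a* and *hoxb4a* were at the floor, and the summed level of the 9 found was 29.3 to 33.6 CPM in *miR-34a-/-* and 37.4 to 44.5 CPM in wild-type. Most of this sum was *mespaa*, which averaged 29.35 CPM in *miR-34a-/-* and 36.2 CPM in wild-type. This gene was thus already expressed at 8 hpf, and the sum does not measure later-stage transcripts as a group. Of the 3 segmentation markers that could be tested, *mespaa* and *pax2a* were lower in the mutants and *mespba* was not called. The difference was large for *pax2a*, which had 5, 1, 0 and 4 counts in *miR-34a-/-* libraries and 14, 21, 16 and 17 in wild-type libraries. Transcripts of the oocyte summed to 136 to 166 CPM in *miR-34a-/-* and 130 to 149.5 CPM in wild-type, with 4 of 9 tested genes higher and 5 not called. Enveloping layer markers summed to 17700 to 18660 CPM in *miR-34a-/-* and 17280 to 19640 CPM in wild-type, with 2 of 12 higher and 3 lower. Of all 13842 genes tested in the same way, 23% were higher and 22.4% lower in the mutants. The part of these marker differences in the results on caspases and calpains was not tested.

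*capn8* was several-fold higher in *miR-34a-/-* embryos, *birc2* was lower and *casp2* was modestly higher. These were the 3 members called among the 9 tested. A gene was called where the quasi-likelihood test of edgeR gave it an adjusted p-value under 0.05. Calls were common over the whole transcriptome: of all 13842 genes tested, 45.4% were called in either direction, 23% higher and 22.4% lower in *miR-34a-/-*. With only 9 members tested, their called share of 33.3% is not read as different from that of all tested genes. The same 3 members were those without overlap between the genotypes, with *casp2* and *capn8* above in *miR-34a-/-* and *birc2* below. Of all tested genes, 38.8% had no overlap, 19.6% with all *miR-34a-/-* libraries above and 19.2% with all of them below. Past a 1.5-fold change, *capn8* was the 1 member called higher and *birc2* the 1 member called lower, against 8.84% and 8.76% of all tested genes. The median log2 fold change, *miR-34a-/-* over wild-type, was 0.037 over the 9 tested members and -0.0012 over all tested genes. The tenth member, *casp3b*, had too few counts to test.

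**Figure D1:**
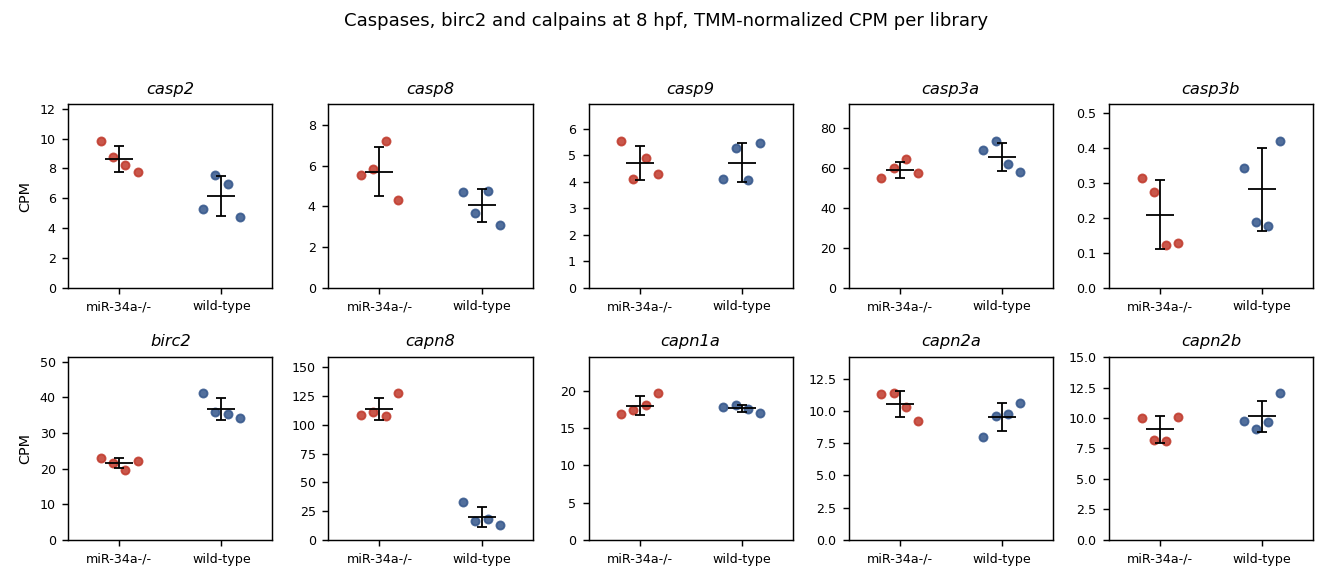
Levels of the 10 members in CPM in each library, with *miR-34a-/-* in red and wild-type in blue. Each point is 1 library, the bars show the mean and SD of 4 libraries, and each panel has its own axis from 0. The libraries of the genotypes do not overlap for *casp2*, *birc2* and *capn8*, and *casp3b* is at the floor of 3 counts in every library.

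Among the initiators, *casp2* was higher in *miR-34a-/-* embryos. Its level was 9.83, 8.74, 8.20 and 7.76 CPM in *miR-34a-/-* libraries and 5.26, 7.57, 6.96 and 4.76 CPM in wild-type libraries. All the mutant libraries were above all the wild-type libraries, although the lowest mutant and the highest wild-type library were close. The means were 8.63 ± 0.892 CPM in *miR-34a-/-* and 6.14 ± 1.34 CPM in wild-type (SD, n = 4 each), a log2 fold change of 0.45 (standard error 0.15) or 1.37-fold, with an adjusted p-value of 0.014. An exact permutation test of the mean CPM, two-sided over the 35 splits into 4 and 4, gave 0.0286. This is the smallest p-value this design allows, and any gene without overlap reaches it, so it adds nothing to the lack of overlap. The call was lost without wild-type replicate 1 (log2 fold change 0.38, adjusted p = 0.052), without wild-type replicate 4 (0.36, adjusted p = 0.053) and without *miR-34a-/-* replicate 1 (0.39, adjusted p = 0.051). *casp2* is in the study's table of predicted miR-34 targets, of which only part of the rows could be read. The caspase-8 regulator gene *cflara* and the kinase gene *rock1*, a caspase substrate, are in it too and were not called, with log2 fold changes of 0.29 (adjusted p = 0.47) and -0.10 (adjusted p = 0.24). The study found no significant overlap between the predicted targets and the genes raised in the mutants at this stage. The share of predicted targets called higher was not tested here, nor was whether *casp2* is a direct target.

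The death-receptor initiator *casp8* had the values 5.54, 5.83, 7.22 and 4.30 CPM in *miR-34a-/-* libraries and 4.69, 3.69, 4.76 and 3.08 CPM in wild-type libraries. Only *miR-34a-/-* replicate 4 fell within the wild-type range. The means were 5.72 ± 1.20 CPM in *miR-34a-/-* and 4.05 ± 0.815 CPM in wild-type (SD, n = 4 each), and the log2 fold change of 0.44 (standard error 0.18, 95% interval 0.079 to 0.80) had an adjusted p-value of 0.053. This size was close to that of *casp2*, with a wider error, and *casp8* was not called. It was called without *miR-34a-/-* replicate 4 (log2 fold change 0.58, adjusted p = 0.014), without wild-type replicate 3 (0.53, adjusted p = 0.039) and without wild-type replicate 1 (0.50, adjusted p = 0.047).

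The apoptosome initiator *casp9* had nearly the same mean in both genotypes. Its level was 5.54, 4.10, 4.90 and 4.30 CPM in *miR-34a-/-* libraries and 4.12, 5.30, 4.06 and 5.46 CPM in wild-type libraries, and the ranges covered each other. The means were 4.71 ± 0.651 CPM in *miR-34a-/-* and 4.73 ± 0.748 CPM in wild-type (SD, n = 4 each). The log2 fold change was -0.012 (standard error 0.17, adjusted p = 0.96), and its 95% interval of -0.35 to 0.32 leaves room for a change in either direction. The sign turned when any 1 of 4 of the libraries was left out, with values up to 0.056.

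Whether *casp8* and *casp9* changed by different amounts was tested within libraries, from the log2 ratio of *casp8* over *casp9* counts. This ratio was 0, 0.50, 0.56 and 0 in *miR-34a-/-* libraries and 0.19, -0.52, 0.23 and -0.81 in wild-type libraries. It averaged 0.26 ± 0.31 in *miR-34a-/-* and -0.23 ± 0.52 in wild-type, a difference of 0.49. The exact permutation p-value was 0.171, or 0.229 with Benjamini-Hochberg adjustment over the 4 ratios tested. A difference between the initiators was therefore not shown at this depth.

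The executioner *casp3a* had 54.7, 60.0, 64.1 and 57.4 CPM in *miR-34a-/-* libraries and 68.6, 73.3, 61.6 and 57.9 CPM in wild-type libraries. The ranges overlapped, with wild-type replicates 1 and 2 above every mutant library. The means were 59.1 ± 4.03 CPM in *miR-34a-/-* and 65.4 ± 6.90 CPM in wild-type (SD, n = 4 each), and the log2 fold change of -0.15 (standard error 0.068, 95% interval -0.29 to -0.022) had an adjusted p-value of 0.063. It passed the threshold without wild-type replicate 4 (-0.20, adjusted p = 0.018), without wild-type replicate 3 (-0.19, adjusted p = 0.029) or without *miR-34a-/-* replicate 3 (-0.19, adjusted p = 0.035), and under 2 other scalings. Its duplicate *casp3b* had 3, 3, 1 and 2 counts in *miR-34a-/-* libraries and 3, 2, 2 and 3 counts in wild-type libraries. The summed counts of *casp3b* were 9 in *miR-34a-/-* and 10 in wild-type. Scaled to the normalized library sizes, their ratio of 0.768 had a 95% interval of 0.276 to 2.103, from counting error only. Of these duplicates, *casp3a* thus held nearly all the reads at this stage in both genotypes. The 2 genes were told apart by their neighbours in the RefSeq gene order. The log2 ratio of *casp3a* over *casp3b* differed by 0.25 between *miR-34a-/-* and wild-type (7.93 ± 0.64 and 7.68 ± 0.65), with an exact permutation p-value of 0.571.

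*birc2*, which encodes the ubiquitin ligase cIAP1, was lower in every *miR-34a-/-* library than in any wild-type library. Its level was 23.0, 21.6, 19.7 and 22.1 CPM in *miR-34a-/-* libraries and 41.2, 35.8, 35.4 and 34.1 CPM in wild-type libraries. The gap between the highest mutant and the lowest wild-type library exceeded the whole spread within either genotype. The means were 21.6 ± 1.39 CPM in *miR-34a-/-* and 36.7 ± 3.11 CPM in wild-type (SD, n = 4 each). The log2 fold change was -0.76 (standard error 0.079), 0.591 of the wild-type level, with an adjusted p-value of 9.7e-09. It stayed between -0.79 and -0.70 whichever library was left out. *birc2* was the only member called lower, and it ranked 881st from the lowest of the 13842 log2 fold changes. When the test asked for a change beyond 1.5-fold rather than for any change, *birc2* had an adjusted p-value of 0.056.

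*capn8* had by far the largest difference of the members. It encodes a calpain that in mammals is known from the stomach. It had 1034, 1217, 878 and 1985 counts in *miR-34a-/-* libraries and 287, 171, 209 and 92 counts in wild-type libraries, so the depth behind its values was ample. Its level was 108, 111, 107.5 and 127 CPM in *miR-34a-/-* libraries and 32.8, 16.2, 18.4 and 12.9 CPM in wild-type libraries. Every mutant library was more than 3 times the highest wild-type library. The means were 113 ± 9.38 CPM in *miR-34a-/-* and 20.1 ± 8.80 CPM in wild-type (SD, n = 4 each), a log2 fold change of 2.50 (standard error 0.13) or 5.66-fold, with an adjusted p-value of 8.4e-15. It ranked 96th from the highest of the 13842 log2 fold changes. The exact permutation test gave 0.0286, the smallest p-value possible, as it does for any gene without overlap.

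The wild-type libraries differed among themselves by up to 2.55-fold in *capn8*. Wild-type replicate 1 had the highest *capn8* level of the wild-type libraries, and without it the log2 fold change was 2.82. Without any other 1 library it was between 2.37 and 2.53.

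The classical calpains *capn1a*, *capn2a* and *capn2b* were not called. A further calpain-1 gene outside the members, *capn1*, was not called either. Its log2 fold change was 0.38 (95% interval 0.065 to 0.69, adjusted p = 0.055). *capn1a* had 16.8, 17.4, 18.1 and 19.6 CPM in *miR-34a-/-* libraries and 17.9, 18.1, 17.5 and 16.9 CPM in wild-type libraries, and the means of 17.99 ± 1.21 CPM in *miR-34a-/-* and 17.6 ± 0.492 CPM in wild-type (SD, n = 4 each) differed by less than the spread in the mutants. Its log2 fold change was 0.037 (standard error 0.089, 95% interval -0.14 to 0.21, adjusted p = 0.76), so that these libraries exclude a change as large as that of *capn8*. The sign of *capn1a* turned without *miR-34a-/-* replicate 4, to -0.017.

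*capn2a* had 11.3, 11.4, 10.3 and 9.24 CPM in *miR-34a-/-* libraries and 8.01, 9.65, 9.79 and 10.6 CPM in wild-type libraries. Its log2 fold change was 0.14 (standard error 0.12, 95% interval -0.096 to 0.38, adjusted p = 0.36). Its duplicate *capn2b* had 10.04, 8.20, 8.08 and 10.1 CPM in *miR-34a-/-* libraries and 9.72, 9.08, 9.70 and 12.03 CPM in wild-type libraries. For *capn2b*, which the study listed among orthologs of p53 target genes, the log2 fold change was -0.13 (standard error 0.13, 95% interval -0.37 to 0.12, adjusted p = 0.43). Both duplicates overlapped between the genotypes, with estimates of opposite sign. Their log2 ratio, *capn2a* over *capn2b*, averaged 0.22 ± 0.26 in *miR-34a-/-* and -0.089 ± 0.17 in wild-type, a difference of 0.30 that had an exact permutation p-value of 0.114, or 0.229 after adjustment over the 4 ratios.

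The neighbours of *capn8* in the genome were examined because several of them are calpains. They were chosen after their values were seen. In the order of the counts, which follows the chromosome, *capn1b* and *capn2b* precede *capn8* and *capn2l* follows it. *capn2l* was also higher, with 31.0, 31.2, 31.7 and 35.5 CPM in *miR-34a-/-* libraries and 19.0, 17.2, 14.6 and 18.8 CPM in wild-type libraries. Its log2 fold change was 0.91 (standard error 0.088, adjusted p = 2.5e-09), so that *capn8* and the next calpain were both higher while *capn2b* on the other side was not called. *capn1b*, identified by its neighbours in the RefSeq gene order and named CAPN11 in the table of gene names, was near the floor. It had 1, 0, 0 and 1 counts in *miR-34a-/-* libraries and 3, 4, 6 and 4 counts in wild-type libraries. Its summed counts were 2 in *miR-34a-/-* and 17 in wild-type. Scaled to the normalized library sizes, they gave a ratio of wild-type over *miR-34a-/-* of 9.96 with a 95% interval of 2.37 to 88.9, from counting error only. *capn1b* was below the filter and was not tested in the fit. Farther out, *mrps28* was higher in the mutants, by a log2 fold change of 0.22 (adjusted p = 0.0022). Beyond it, *sde2* was also called higher, by 0.12 (adjusted p just under 0.05), with overlapping libraries. The glycosyltransferase genes *b3galt11* and *b3galt10.1* were lower, with log2 fold changes of -0.62 (adjusted p = 0.00039) and -0.42 (adjusted p = 0.011). Adjacent genes thus differed in direction. The calpains in this row are related copies, and how reads shared between copies were counted was not given in the sources used here, so that part of a difference between them could come from such reads, which was not tested.

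**Figure D2:**
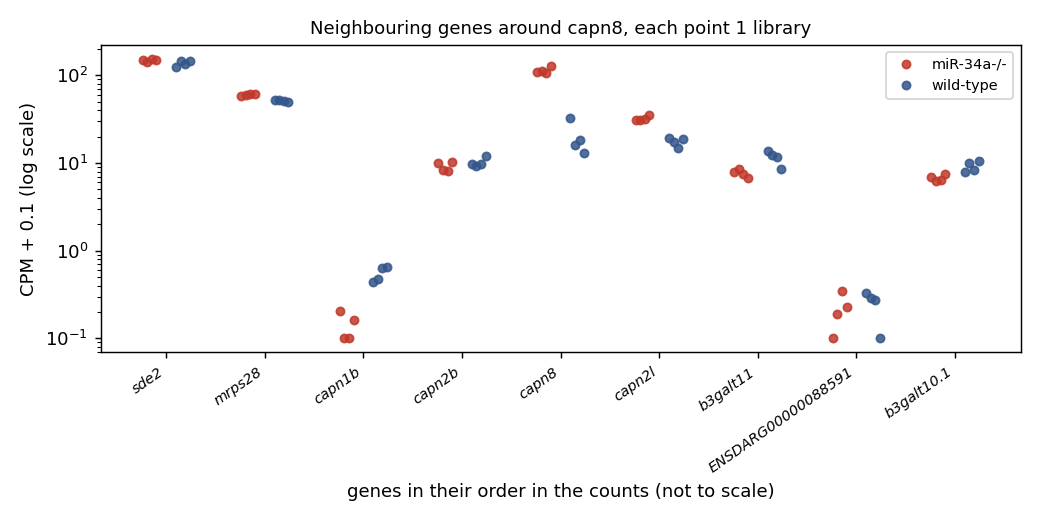
Levels of *capn8* and the 4 genes on either side of it in the order of the counts, as CPM + 0.1 on a log axis, each point 1 library. *miR-34a-/-* libraries, in red, are left of wild-type libraries, in blue. *capn8* and *capn2l* are higher in *miR-34a-/-*, *capn2b* overlaps, and *b3galt11* and *b3galt10.1* are lower. *capn1b* is near the floor.

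*capn1a* and *capn2a* are neighbours elsewhere in the genome, and neither was called. The log2 ratio of *capn1a* over *capn1b*, taken here as the duplicate of *capn1a*, averaged 7.81 ± 0.80 in *miR-34a-/-* and 5.15 ± 0.36 in wild-type, a difference of 2.66. The genotypes did not overlap, so the exact permutation p-value was 0.0286, the smallest possible, or 0.114 after adjustment over the 4 ratios. *capn1a* was not called on its own, and *capn1b* had at most 6 counts in any library, so this ratio rests on few reads.

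The remaining genes of the pathways were grouped by role. Over 5 lists, 58 genes were in the counts and 42 could be tested, of which 10 were higher, 12 were lower and 20 were not called. The 52.4% called was near the 45.4% of all tested genes.

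**Figure D3:**
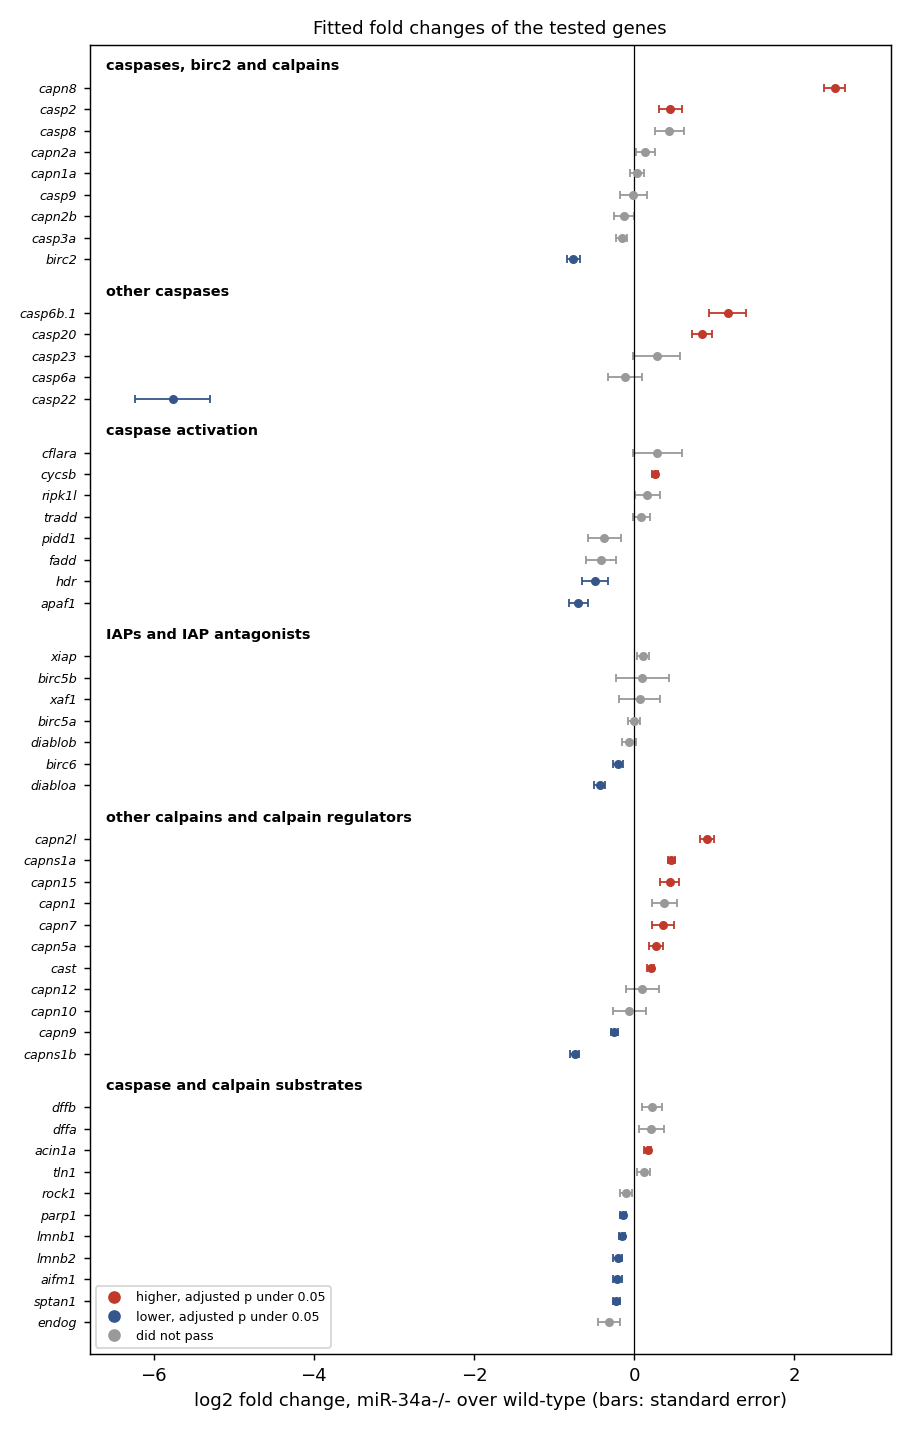
Log2 fold changes, *miR-34a-/-* over wild-type, of the 9 members and 42 related genes that could be tested, with bars for the standard error. Red marks genes called higher, blue genes called lower and grey genes not called. *capn8* lies farthest to the right, and the value of *casp22* depends on the prior count because the gene had 2 counts in all in *miR-34a-/-*.

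Of the other caspases, 11 were in the counts and 5 were tested. Of these 5, 2 were higher and 1 lower (median log2 fold change 0.28), beside 23% higher and 22.4% lower of all tested genes. *casp6b.1*, a copy of the executioner caspase-6 gene, had 3.56, 3.55, 4.41 and 3.46 CPM in *miR-34a-/-* libraries and 2.29, 1.23, 1.59 and 1.54 CPM in wild-type libraries. Its log2 fold change was 1.17 (standard error 0.23, adjusted p = 0.00013). The adjacent copy *casp6a* had a log2 fold change of -0.12 (adjusted p = 0.68), and the third copy, *casp6b.2*, was at the floor. *casp20*, which lies 2 genes from *casp8*, averaged 10.1 ± 0.706 CPM in *miR-34a-/-* and 5.70 ± 0.587 CPM in wild-type (SD, n = 4 each), with a log2 fold change of 0.85 (standard error 0.13, adjusted p = 5.8e-06). *casp20* was called and *casp8* was not, and the difference between the 2 was not tested.

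*casp22* was almost without counts in *miR-34a-/-* embryos. It had 0, 1, 0 and 1 counts in *miR-34a-/-* libraries and 27, 38, 30 and 22 counts in wild-type libraries, or at most 0.0911 CPM in *miR-34a-/-* and 2.65 to 3.59 CPM in wild-type. The summed counts of 2 and 117, scaled to the normalized library sizes, gave a ratio of wild-type over *miR-34a-/-* of 68.6. Its 95% interval of 18.6 to 573 covers counting error only, and the adjusted p-value of the edgeR test was 9.1e-11. *casp21*, named here after its values were seen, ran the other way below the filter, with 12 counts in *miR-34a-/-* and 1 in wild-type. *caspb* and *casp6b.2* were at the floor in every library.

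Of the adaptors, receptors and cofactors of caspase activation, 13 were in the counts and 8 were tested. Of these 8, 1 was higher and 2 were lower (median log2 fold change -0.14), beside the 45.4% called of all tested genes. *cycsb*, which encodes cytochrome c, was higher, at 291 ± 10.3 CPM in *miR-34a-/-* and 243.5 ± 7.09 CPM in wild-type (SD, n = 4 each), a log2 fold change of 0.26 (standard error 0.041, adjusted p = 9.9e-06). Its partner in the apoptosome, *apaf1*, which like *cflara* and *capn2b* is among the listed orthologs of p53 targets, was lower, at 8.36, 9.38, 7.71 and 7.31 CPM in *miR-34a-/-* libraries and 12.9, 14.7, 12.7 and 12.5 CPM in wild-type libraries, a log2 fold change of -0.70 (standard error 0.12, adjusted p = 1.8e-05). Of the 3 parts of the apoptosome, *cycsb* was thus higher and *apaf1* lower, while *casp9* was not called and its interval holds the value of *cycsb*. The death receptor gene *hdr* was lower, at 4.08 ± 0.509 CPM in *miR-34a-/-* and 5.71 ± 0.409 CPM in wild-type (SD, n = 4 each), with a log2 fold change of -0.49 (standard error 0.16, adjusted p = 0.015) that missed the threshold without *miR-34a-/-* replicate 4 (adjusted p = 0.055). Its adaptor *fadd*, upstream of *casp8*, had a log2 fold change of -0.42 (adjusted p = 0.071). For the PIDDosome of *casp2*, *pidd1* had a log2 fold change of -0.38 (adjusted p = 0.14), and *cradd* was below the filter.

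Of the IAPs and their antagonists other than *birc2*, 8 were in the counts and 7 were tested. Of these 7, 2 were lower and 0 higher in the edgeR test (median log2 fold change -0.0051), beside 22.4% lower and 23% higher of all tested genes. The count higher was also 0 at an unadjusted p-value under 0.05, and 0 with DESeq2 and with limma-voom. *diabloa*, a Smac gene, had 67.9, 75.7, 72.0 and 67.9 CPM in *miR-34a-/-* libraries and 107, 77.2, 98.8 and 100.0 CPM in wild-type libraries. Its log2 fold change was -0.43 (standard error 0.071, adjusted p = 1.7e-05), and wild-type replicate 2 came close to the mutants. The other Smac copy, *diablob*, was not called (log2 fold change -0.067, adjusted p = 0.58). *birc2* and *diabloa*, which act against each other, were thus both lower, while *diablob* was not called. *birc6* was lower by a small amount, with a log2 fold change of -0.20 (adjusted p = 0.0090). The main caspase inhibitor *xiap* was not called (log2 fold change 0.11, adjusted p = 0.26).

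Of the other calpains and their regulators, 15 were in the counts and 11 were tested, with 6 higher and 2 lower (median log2 fold change 0.27), beside 23% higher and 22.4% lower of all tested genes. Besides *capn2l*, *capn15* was higher by a log2 fold change of 0.44 (standard error 0.12, adjusted p = 0.0040), at 16.6 ± 1.54 CPM in *miR-34a-/-* and 12.2 ± 2.58 CPM in wild-type (SD, n = 4 each). *capn9*, which in mammals works with *capn8* in the stomach, was lower: it had 391.8, 402, 413 and 405 CPM in *miR-34a-/-* libraries and 467.5, 501.5, 445 and 499.9 CPM in wild-type libraries, a log2 fold change of -0.25 (standard error 0.041, adjusted p = 1.8e-05). *capn8* and *capn9* thus differed in direction and in size. *cast*, which encodes calpastatin, was higher by a log2 fold change of 0.20 (adjusted p = 0.00025).

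The small regulatory subunit is encoded by a pair of duplicates that moved in opposite directions. *capns1a* had 134, 128, 132 and 131 CPM in *miR-34a-/-* libraries and 88.9, 94.4, 95.8 and 102 CPM in wild-type libraries, a log2 fold change of 0.47 (standard error 0.049, adjusted p = 1.4e-08). *capns1b* had 62.7, 62.2, 66.2 and 58.0 CPM in *miR-34a-/-* libraries and 114.5, 103, 95.9 and 103 CPM in wild-type libraries, a log2 fold change of -0.74 (standard error 0.059, adjusted p = 5e-11). Neither gene overlapped between the genotypes. The sum of both, examined after these values were seen, was 194 ± 4.49 CPM in *miR-34a-/-* and 199 ± 5.97 CPM in wild-type, with overlapping ranges, and *capns1a* made up 67.9 ± 1.14% of it in *miR-34a-/-* and 47.8 ± 2.92% in wild-type (SD, n = 4 each). These shares are of CPM, which do not correct for transcript length.

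**Figure D4:**
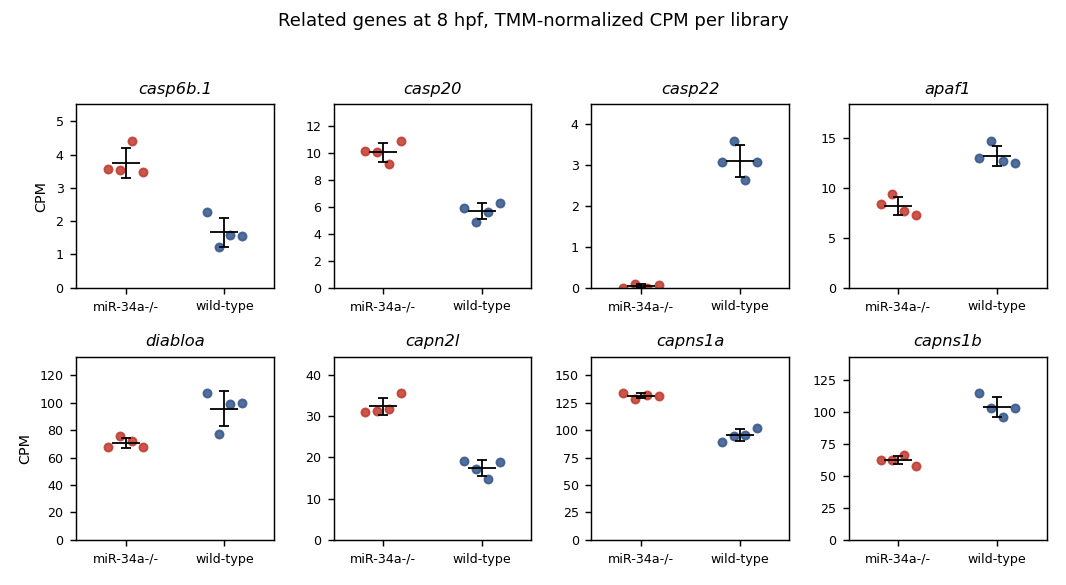
Levels of 8 related genes in CPM in each library, with *miR-34a-/-* in red and wild-type in blue. Each point is 1 library, the bars show the mean and SD of 4 libraries, and each panel has its own axis from 0. *casp6b.1*, *casp20*, *capn2l* and *capns1a* are higher in *miR-34a-/-*, and *casp22*, *apaf1*, *diabloa* and *capns1b* are lower. No panel overlaps, because only called genes without overlap were chosen.

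Genes for proteins that caspases or calpains cut, or that act after them, were all tested. Of the 11, 1 was higher and 5 were lower by small amounts (median log2 fold change -0.14), beside 23% higher and 22.4% lower of all tested genes. Among the genes called, the largest falls were in *sptan1*, a spectrin cut by both protease families, with a log2 fold change of -0.22 (standard error 0.042, adjusted p = 8.4e-05), in *aifm1*, the apoptosis-inducing factor of mitochondria, with -0.21 (standard error 0.058, adjusted p = 0.0047), and in the lamin gene *lmnb2*, with -0.21 (standard error 0.052, adjusted p = 0.0020). None of the 11 passed a 1.5-fold change.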

How the data were processed

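The authors trimmed reads with Trim Galore 0.4.4, mapped them with STAR 2.7.8 to danRer11 and deposited raw read counts per Ensembl gene. The counting program, annotation release and use of strand are not given in the sources used here. From the counts of all 8 libraries, genotype was tested in R 4.3.3 with edgeR 4.0.16 (TMM, filterByExpr, quasi-likelihood test, Benjamini-Hochberg adjustment over 13842 genes). The standard error is the size of the log2 fold change divided by the square root of F. CPM use the TMM-normalized library size. Ratios of counts had 0.5 added to each count. Symbols came from a table of gene names (upper or lower case), or where that did not settle the gene, from at least 4 shared neighbours among 8 on each side in RefSeq's GRCz12tu. This placed 2 members and 12 related or marker genes by neighbours. Of the listed related genes, 11 of 15 other caspases, 13 of 13 genes of caspase activation and 8 of 9 IAPs and antagonists were matched. So were 15 of 17 calpains and regulators and 11 of 11 substrates. The values of 1 of the other caspases are not reported here. Besides the members, up to 3 genes higher and 3 lower per list are named, those with the largest log2 fold change among called genes without overlap. The others, among them *birc6*, *diablob*, *cflara*, *rock1*, *xiap*, *fadd*, *pidd1*, *cast*, *capn1*, *casp6a*, *casp21*, *pax2a*, *mespaa* and the neighbours, are named after their values were seen. The members and lists were chosen with earlier results of these data known. Alternatives were other normalizations, filters and tests (limma 3.58.1, DESeq2 1.42.0), a replicate block and leaving out each library.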

Additional observations from a re-analysis of the deposited data

Results flagged for a closer look

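In 4 of 48 groups of 4 libraries examined, 1 library lay far from the other 3 by Dixon's criterion, which chance meets in about 1 in 20 groups. *capn8* stood at 127 CPM in *miR-34a-/-* replicate 4, above the other mutant libraries. *capn2l*, its neighbour, was highest in the same library, at 35.5 CPM. *casp6b.1* stood at 4.41 CPM in *miR-34a-/-* replicate 3, above the other mutant libraries. *capn15* stood at 8.35 CPM in wild-type replicate 1, below the other wild-type libraries, and its log2 fold change fitted without this replicate was 0.30 (adjusted p = 0.025).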

How the results depend on the processing

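Under 10 alternatives in normalization, filter or test, *birc2*, *capn8* and *casp2* kept their direction, and *capn8* its call. With glmTreat, which tests for a change beyond 1.5-fold, 542 genes were higher and 536 lower, against 3178 and 3102 in the quasi-likelihood test and 1223 and 1213 of those past 1.5-fold. Of the members, 1 was then higher and 0 lower, since *casp2* (0.45, adjusted p = 1) and *birc2* (-0.76, adjusted p = 0.056) were no longer called. Under glmTreat the calls were 1 higher and 1 lower for other caspases, and 0 higher and 0 lower for caspase activation. They were 0 higher and 0 lower for IAPs and antagonists and for substrates. For other calpains and regulators they were 1 higher and 1 lower. With upper quartile normalization (-0.17, adjusted p = 0.036) or library size alone (-0.16, adjusted p = 0.048), *casp3a* passed the threshold, which gave 2 members lower. These scalings moved the median of all genes by at most 0.02. *casp8* passed with all genes of at least 1 count (0.44, adjusted p = 0.044), with the likelihood ratio test (0.45, adjusted p = 0.040) and with a replicate block (0.50, adjusted p = 0.018). Same-numbered libraries did not deviate together (r between -0.032 and 0.0077), so the numbers give no pairing. The block changed no other member's call.

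Leaving out 1 library at a time gave 1 to 3 members higher and 1 to 2 lower, 2856 to 3058 genes higher and 2835 to 3019 lower, and past 1.5-fold 1170 to 1251 higher and 1135 to 1293 lower. The lists gave 2 to 2 higher and 1 to 1 lower for other caspases, 1 to 1 higher and 1 to 3 lower for caspase activation, 0 to 0 higher and 1 to 3 lower for IAPs and antagonists, 5 to 6 higher and 2 to 2 lower for other calpains, and 1 to 1 higher and 5 to 5 lower for substrates. The log2 fold changes ranged from 0.36 to 0.56 for *casp2*, 0.33 to 0.58 for *casp8*, -0.20 to -0.095 for *casp3a*, -0.79 to -0.70 for *birc2*, 2.37 to 2.82 for *capn8*, 0.071 to 0.21 for *capn2a* and -0.19 to -0.050 for *capn2b*. For *casp9* they ranged from -0.096 to 0.056, and the sign turned without wild-type replicate 2 (0.056), wild-type replicate 4 (0.049), *miR-34a-/-* replicate 2 (0.046) or *miR-34a-/-* replicate 4 (0.037). For *capn1a* they ranged from -0.017, without *miR-34a-/-* replicate 4, to 0.068. The log2 ratio of *casp3a* over *casp3b* turned to -0.014 without wild-type replicate 4 and reached 0.48. The causes were not tested. With about 5 CPM and 22 to 67 counts per library, *casp8* and *casp9* had the widest intervals among the tested members.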
